A study of Mus musculus with 14 samples.

Results

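The 3 miRNA names of the mouse miR-142 locus were examined: mmu-miR-142a-3p and mmu-miR-142a-5p, the arms of 1 hairpin, and mmu-miR-142b, which is annotated on the opposite strand. The prefix mmu, for mouse, is left off from here on. They were taken by name from a count table of 1695 mature miRNA names, and all 3 names were present. MicroRNAs were sequenced from small extracellular vesicles, which cells shed into the medium. Primary neutrophils (Ly6G-positive) had been isolated from bone marrow of WT BALB/c mice, which the series' design text gives as female. The neutrophils were kept for 48 h with the solvent DMSO or with 10 µM 27HC (27-hydroxycholesterol, a metabolite of cholesterol). Each group held 7 libraries. Each library's description carries a pair of consecutive numbers whose meaning is not stated. The labels do not say whether animals were pooled, which such pairs leave possible, or whether libraries came from separate cultures or animals, so p-values measure the spread between these libraries, which may be technical.

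A miRNA hairpin is cut from a longer transcript and then trimmed to a short duplex. Either strand of the duplex, named 5p or 3p after its arm of the hairpin, can be bound by an Argonaute protein and guide it to messenger RNAs that pair with the seed, bases 2 to 8 of the miRNA. miR-142 is known for its near restriction to blood cells, where it is abundant in all lineages, neutrophils included, and both of its arms are known to act as guides. The question was how 27HC changes these miRNAs in the vesicles.

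The sequences are shown because the arms carry different seeds and because miR-142b is easily confused with them. Mature sequences run 5′ to 3′ with the seed in capitals, and in the hairpin the capitals mark the 5p arm and then the 3p arm. All are from RefSeq on build GRCm38.p6.
miR-142a-3p: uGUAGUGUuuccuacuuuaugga
miR-142a-5p: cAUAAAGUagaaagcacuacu
miR-142b: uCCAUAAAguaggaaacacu
Mir142 hairpin: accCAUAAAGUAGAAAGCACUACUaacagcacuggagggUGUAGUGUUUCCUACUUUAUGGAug

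The Mir142 hairpin lies at chr11:87756864-87756927 on the plus strand. Its 5p arm spans chr11:87756867-87756887 and its 3p arm chr11:87756903-87756925. The GENCODE M21 annotation of GRCm38 places the hairpin in the intron between the 2 exons of Mir142hg, a long non-coding host transcript. The 115-base Mir142b hairpin lies at chr11:87756841-87756955 on the minus strand and covers all 64 bases of the Mir142 hairpin, and mature miR-142b spans chr11:87756906-87756925. Positions come from the annotation alone, since the counts are by name.

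miR-142b is the exact reverse complement of bases 4 to 23 of miR-142a-3p. It also resembles miR-142a-5p: from base 3 of miR-142b on, 18 bases align with the start of miR-142a-5p with 2 substitutions, A11G and G14A, counted from the 5′ end of miR-142a-5p with the base of miR-142a-5p first. The longest run the 2 names share is the 10 bases CAUAAAGUAG. No other name in the table shares a seed with any of the 3, among the 1431 names matched to a RefSeq mature sequence. The 3 seeds also differ from each other.

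Library totals ran from 112914 to 871189 counts, and 239 names passed the filter on low counts, the 3 of miR-142 among them. Levels are given as CPM, counts scaled to a common library size by TMM, which sets the bulk of the names level between libraries. A CPM value is relative to the other miRNAs of its library. miR-223-3p, the defining miRNA of neutrophils and other myeloid cells, was abundant in every library, between 74074 and 192131 CPM. Of the neutrophil and myeloid list both names were tested and 0 called, where 12.6% of all names tested were called. Of the list for erythroid cells and platelets, 2 of 5 names were tested and 0 were called. These 2, miR-486a-5p and miR-486b-5p, hold identical counts and are 1 measurement, so they enter the sum once. The summed level of the list was 505 to 1062 CPM in DMSO and 729.5 to 1126 CPM in 27HC libraries. Most of it was miR-486a-5p, with means of 694 of 764 CPM in DMSO and 878 of 981 CPM in 27HC libraries. The untested miR-451a, miR-144-3p and miR-144-5p were scarce, with 133, 133 and 65 counts over all libraries. Of 7 stromal and endothelial names 4 were tested and 0 called, at 1042 to 2301 CPM and 988 to 2421 CPM. Of 6 epithelial names 4 were tested and 0 called, at 258 to 551 CPM and 366 to 575 CPM. The liver miRNA miR-122-5p, at 2476 to 4587 CPM and 1895 to 3672 CPM, was not called either. No name on these lists was at 0 in all libraries. Their part in the levels of miR-142, which blood cells of other lineages also make, was not tested.

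miR-142a-3p, the more abundant arm, fell 2.90-fold in vesicles of 27HC-treated neutrophils. In DMSO libraries its lowest, median and highest levels were 6176, 9277 and 18886 CPM. In 27HC libraries they were 2867, 3944 and 4644 CPM. Every 27HC library was thus lower than any DMSO library, and the highest DMSO level was that of replicate 3, the deepest library. The means were 10913 ± 4120.2 CPM and 3771 ± 667 CPM (SD, n = 7). In log2 terms it changed by −1.53 (SE 0.20) at an adjusted p of 3.55e-05 in edgeR. A name was called where this adjusted p was under 0.05. Of the 239 names tested, 12.6% were called, 8.79% as lower and 3.77% as higher, and groups did not overlap for 5.44%, with 27HC lower for 3.35%. Only 3 names had a lower log2 fold change. Fewer vesicles carrying a miRNA and less of it per vesicle cannot be told apart in these data.

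As a share of all counts, miR-142a-3p took 1.07 ± 0.295% in DMSO and 0.373 ± 0.0766% in 27HC libraries (SD, n = 7). The shallowest library, DMSO replicate 5, gave 0.968%, with an exact 95% binomial interval of 0.912 to 1.03%. The deepest 27HC library, replicate 1, gave 0.454%, with an interval of 0.433 to 0.475%. These intervals cover counting error only. The part of depth in these shares was not tested. By level, miR-142a-3p ranked between 9 and 22 among all names in DMSO libraries and between 25 and 38 in 27HC libraries. Next to it in the DMSO order of means were miR-340-5p at 11518 ± 2732.8 CPM and miR-30d-5p at 9330.4 ± 2174.7 CPM, which differed from it by less than their spread. In the 27HC order it stood between miR-92a-3p at 4059.9 ± 674 CPM and let-7c-5p at 3647 ± 868 CPM, again within their spread.

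miR-142a-5p, the less abundant arm, fell less. Its lowest, median and highest levels were 1284, 2241 and 3914 CPM in DMSO and 1283, 1362 and 1703 CPM in 27HC libraries. The groups overlapped, since 6 of 7 libraries with 27HC lay within the DMSO range, although 6 of 7 DMSO libraries lay above the highest 27HC library. DMSO replicate 7 was the exception, at 1284 CPM. The means were 2412 ± 931 CPM and 1451 ± 178 CPM (SD, n = 7), a 1.67-fold fall. On the log2 scale this was −0.74 (SE 0.20) at an edgeR adjusted p of 0.0223. In the DMSO order of means it stood between miR-92a-3p and miR-103-3p, at 2476 ± 482 and 2390 ± 553.8 CPM, which did not differ from it beyond their spread. In the 27HC order let-7g-5p at 1471 ± 253 CPM and miR-29c-3p at 1402 ± 118 CPM stood on either side of it, within their spread too.

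The call for miR-142a-5p was lost when single libraries were left out. The edgeR adjusted p was 0.0643, 0.0512 and 0.0713 without DMSO replicates 1, 2 and 3. It was 0.0588, 0.0567, 0.0647, 0.0666 and 0.0610 without 27HC replicates 2, 3, 4, 5 and 6. Over the 14 such fits its log2 fold change stayed between −0.83 and −0.52. limma-voom also missed the threshold, at −0.67 with an adjusted p of 0.0549. The call for miR-142a-3p held in all 14 fits, at log2 fold changes from −1.60 to −1.29 and edgeR adjusted p-values up to 0.000159.

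miR-142b, the name on the opposite strand, was scarce and not called. Its lowest, median and highest levels were 43.6, 72.3 and 108 CPM in DMSO and 16.0, 61.2 and 107 CPM in 27HC libraries, from 9 to 53 and from 2 to 33 counts. The ranges of the groups largely coincided. The lowest 27HC value was that of replicate 5, with 2 counts. The means were 76.0 ± 24.6 CPM and 68.7 ± 31.5 CPM (SD, n = 7). The fitted log2 difference was −0.13 (SE 0.32) at an edgeR adjusted p of 0.871, and 0.088 without 27HC replicate 5. The interval of 2 SE on either side ran from −0.77 to 0.51, so a fall as large as that of miR-142a-5p is not excluded. For every 100 counts of miR-142a-5p there were 3.47 ± 1.504 counts of miR-142b in DMSO and 4.64 ± 1.89 in 27HC libraries (SD, n = 7). How the authors' counting separated reads of miR-142b from those of miR-142a-5p, which differ at only 2 of 18 aligned bases, is not given in the sources used here, so its counts are uncertain.

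**Figure D1:**
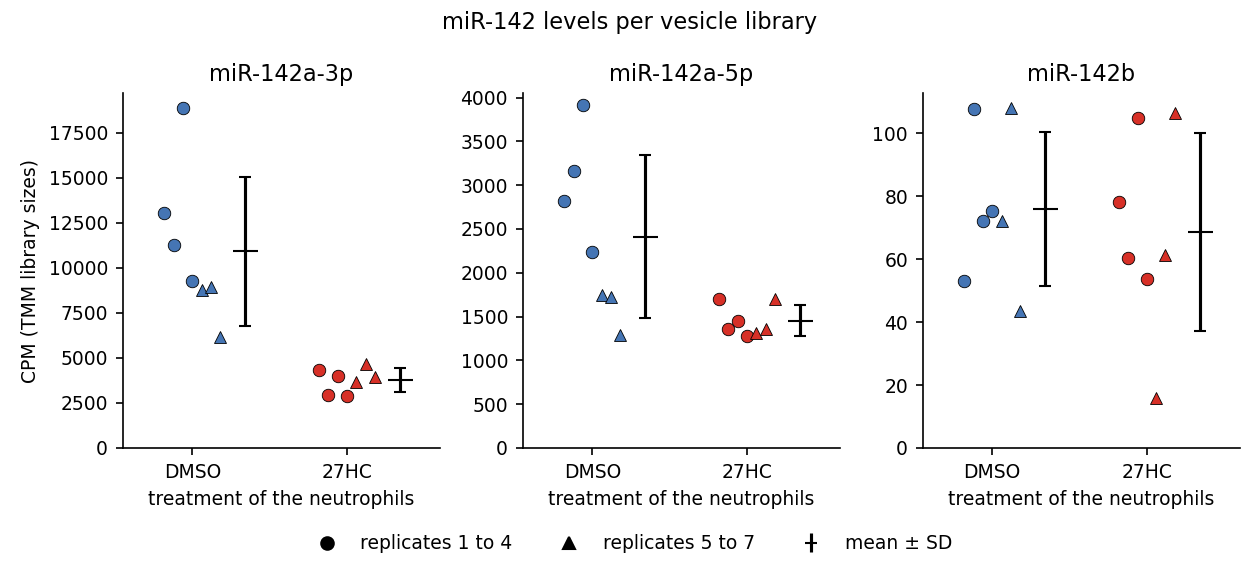
Level of each miR-142 name in CPM (linear axes from 0) in DMSO (blue) and 27HC (red) libraries, with 1 point per library, circles for replicates 1 to 4, triangles for replicates 5 to 7, and the mean ± SD of 7 libraries beside them. For miR-142a-3p the 27HC points end at 4644 CPM and the DMSO points begin at 6176 CPM. For miR-142b the ranges largely coincide, apart from 27HC replicate 5 at 16.0 CPM, below every DMSO library.

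The arms of miR-142a were then compared within each library, where both are counted together and library scaling has no effect. The balance moved towards the 5p arm. In DMSO libraries there were 4.60 ± 0.566 counts of the 3p arm for every count of the 5p arm, and in 27HC libraries 2.61 ± 0.429 (SD, n = 7). The lowest, median and highest ratios were 3.57, 4.81 and 5.22 in DMSO and 2.18, 2.56 and 3.41 in 27HC libraries, so that the groups did not overlap. These are ratios of counts, which need not equal ratios of molecules.

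The 5p arm made up 18.0 ± 2.01% of the counts of both arms in DMSO and 28.0 ± 3.10% in 27HC libraries (SD, n = 7). The highest DMSO share was 21.9% in replicate 2, with a 95% Wilson interval of 20.7 to 23.2%. The lowest 27HC share was 22.7% in replicate 6, with an interval of 19.9 to 25.7%, so these 2 libraries cannot be separated by their counts alone. On the log2 scale the difference in 5p over 3p was 0.83, from −2.19 ± 0.19 to −1.36 ± 0.23 (SD, n = 7). Its two-sided exact permutation p over all 3432 ways to assign the libraries was 0.000583, the smallest they can give, and 0.000728 when adjusted over the 5 ratios tested.

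The libraries also differed in depth, from 112914 to 871189 counts in DMSO and from 119852 to 405902 counts with 27HC, and the arm ratio was read beside it. In DMSO the shallowest library, replicate 5, had 5.01 counts of the 3p arm per count of the 5p arm, and the deepest, replicate 3, had 4.83. With 27HC the shallowest, replicate 7, had 2.32 and the deepest, replicate 1, had 2.56, while replicate 6, with 127014 counts, had the highest ratio of its group, 3.41. In both groups the mean log2 of 5p over 3p was lower in replicates 5 to 7, which hold the shallowest libraries, than in replicates 1 to 4. It was −2.32 against −2.09 in DMSO and −1.49 against −1.27 with 27HC. The part of depth in the arm ratio was not tested. Summed over each group, 28488 counts of the 3p arm stood against 6261 of the 5p arm in DMSO, and 5727 against 2257 in 27HC libraries.

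**Figure D2:**
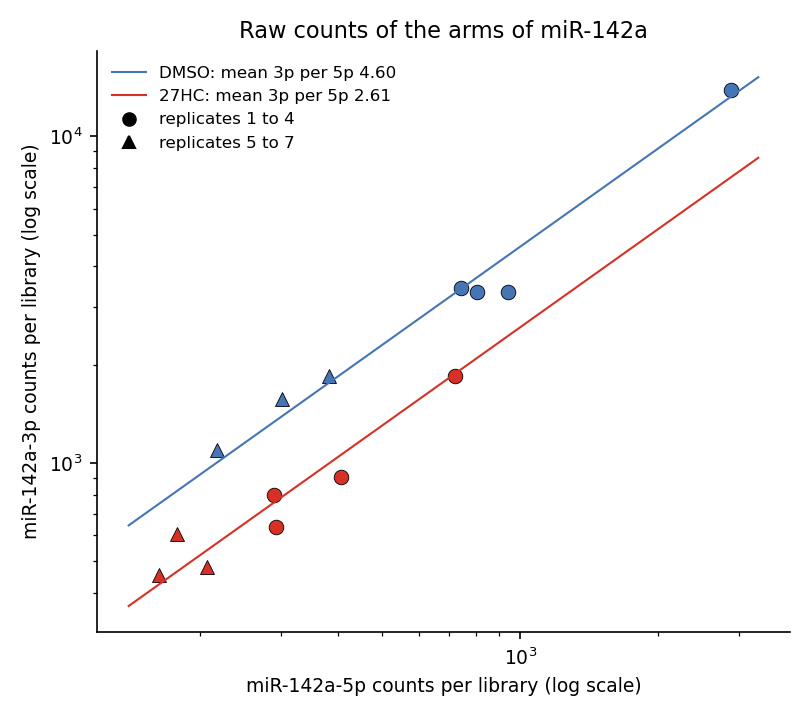
Raw counts of miR-142a-3p (vertical, log scale) against miR-142a-5p (horizontal, log scale), 1 point per library, with DMSO in blue, 27HC in red, circles for replicates 1 to 4 and triangles for replicates 5 to 7. Lines mark the mean ratio of each group, 4.60 for DMSO and 2.61 for 27HC. Between the lines lie DMSO replicates 2 and 4, at ratios of 3.57 and 4.14. Replicates 3, 5 and 6 of 27HC lie there too, at 2.76, 2.79 and 3.41.

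To see how common such a shift was, the same log2 ratio was fitted with limma for every hairpin name with both arms past the filter. There were 33 such names, of which miR-486a and miR-486b have the same counts for their 5p arms. The arm ratio was called for 12.1% of them in either direction and for 6.06% with 5p gaining, and groups did not overlap for 6.06%, with 5p gaining for 3.03%. miR-142a had the lowest p of the 33, with a limma adjusted p of 0.00167 and a difference of 0.83 (SE 0.15). The median difference over the 33 names was 0.042, and the median size regardless of sign was 0.33. The difference of miR-142a was not the largest: 4 names had a larger one.

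The other 3 called hairpins were miR-129b, miR-149 and miR-150. miR-129b shifted the same way as miR-142a, by 1.15 (SE 0.26, limma adjusted p 0.00539), and its arms were the only other pair in which both were called lower, at log2 fold changes of −1.14 for 5p and −2.20 for 3p. miR-149 and miR-150 shifted the other way, by −1.69 (SE 0.33) and −1.96 (SE 0.53), with limma adjusted p-values of 0.00206 and 0.0155. Their 5p arms were called lower in edgeR, at −0.92 and −0.97, and their 3p arms were not called, at 0.70 and 1.22 on means of 44.2 and 9.50 counts. miR-142a was counted more deeply, with a mean of 608 counts per library for 5p and 2444 for 3p. Among the 33 hairpins, the 3p arm was the more abundant in DMSO for 9, miR-142a included. miR-223, the other blood cell hairpin with a dominant 3p arm, had a difference of 0.37 (SE 0.21) and was not called (limma adjusted p 0.336). That difference was lower in replicates 5 to 7 than in replicates 1 to 4, by −0.80 (SE 0.30). The limma p of this contrast was 0.0183 before and 0.303 after adjustment, so it did not pass.

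**Figure D3:**
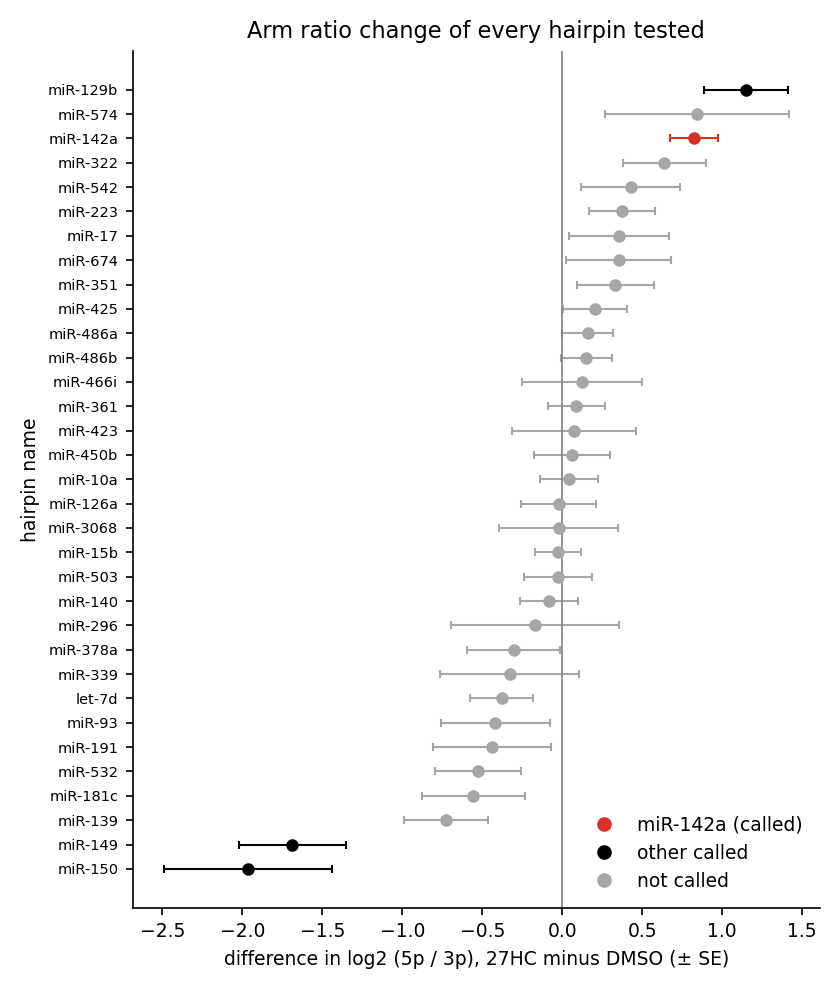
Difference between 27HC and DMSO in log2 of 5p over 3p counts (horizontal, ± SE) for each of the 33 hairpin names with both arms tested, ordered by size, with miR-142a in red, other called names in black and the rest in grey. miR-142a stands at 0.83 with a smaller SE than the names of larger difference, miR-129b, miR-149, miR-150 and miR-574.

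Ratios to other miRNAs of the same library gave levels that do not rest on scaling, but that also move with the denominator. Against miR-223-3p, the log2 ratio of miR-142a-3p moved from −3.73 ± 0.28 with DMSO to −4.997 ± 0.33 with 27HC (SD, n = 7), by −1.27. Against miR-16-5p, the most abundant name, it moved from −5.22 ± 0.33 to −6.80 ± 0.30, a difference of −1.58. For both ratios the groups did not overlap in any of the 7 libraries a side, with an exact permutation p of 0.000583 (adjusted 0.000728). The log2 ratio of miR-142a-5p to miR-16-5p also separated the groups, by −0.75 (exact permutation p 0.000583, adjusted 0.000728). Against miR-223-3p it differed by −0.44, with 4 of 7 27HC libraries below every DMSO library and an exact permutation p of 0.00699 (adjusted 0.00699). miR-223-3p and miR-16-5p were themselves not called, at log2 fold changes of −0.26 and 0.085 (edgeR adjusted p 0.406 and 0.818). Their log2 fold changes were higher in replicates 5 to 7 than in replicates 1 to 4, by 0.64 (SE 0.22) and 0.28 (SE 0.21). The edgeR p-values of these contrasts were 0.0118 and 0.204 before and 0.267 and 0.573 after adjustment. The part of the denominators in the ratios was not tested.

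The libraries divide by replicate number into 1 to 4 and 5 to 7 in both groups, a division known from earlier results of these data whose origin the labels do not give. In DMSO, miR-142a-3p stood at 13123 ± 4141 CPM in replicates 1 to 4 (SD, n = 4) and at 7967 ± 1554 CPM in replicates 5 to 7 (SD, n = 3). In 27HC libraries it stood at 3542 ± 742.6 CPM and 4076 ± 515 CPM. The fitted log2 difference was −1.82 (SE 0.22) in replicates 1 to 4 and −0.96 (SE 0.18) in replicates 5 to 7, at edgeR adjusted p-values of 0.000118 and 0.0106, and groups did not overlap in either.

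For miR-142a-5p the fall passed the test in replicates 1 to 4 and did not in replicates 5 to 7. Replicates 1 to 4 went from 3033 ± 699 to 1448 ± 183 CPM (SD, n = 4), or −0.999 in log2 (SE 0.17), at an edgeR adjusted p of 0.00172 and with no overlap. Replicates 5 to 7 went from 1583 ± 259.5 to 1455 ± 212 CPM (SD, n = 3), at −0.11 (SE 0.19, edgeR adjusted p 0.840), and all 3 libraries with 27HC lay within the DMSO range. A test of the difference between the sets gave 0.95 (SE 0.26) for miR-142a-5p and 0.92 (SE 0.31) for miR-142a-3p. Their edgeR p-values were 0.00204 and 0.00925 before and 0.122 and 0.267 after adjustment over all names, so neither passed. By this test 0% of the 239 names were called, with 24 at an unadjusted p under 0.05.

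The arm ratio of miR-142a differed between treatments by nearly the same amount in each set. Replicates 1 to 4 gave 0.82 and replicates 5 to 7 gave 0.84, with exact permutation p-values of 0.0286 and 0.1, each the smallest its set allows. The difference between the sets was 0.020 (SE 0.28, limma unadjusted p 0.944, adjusted 0.999).

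**Figure D4:**
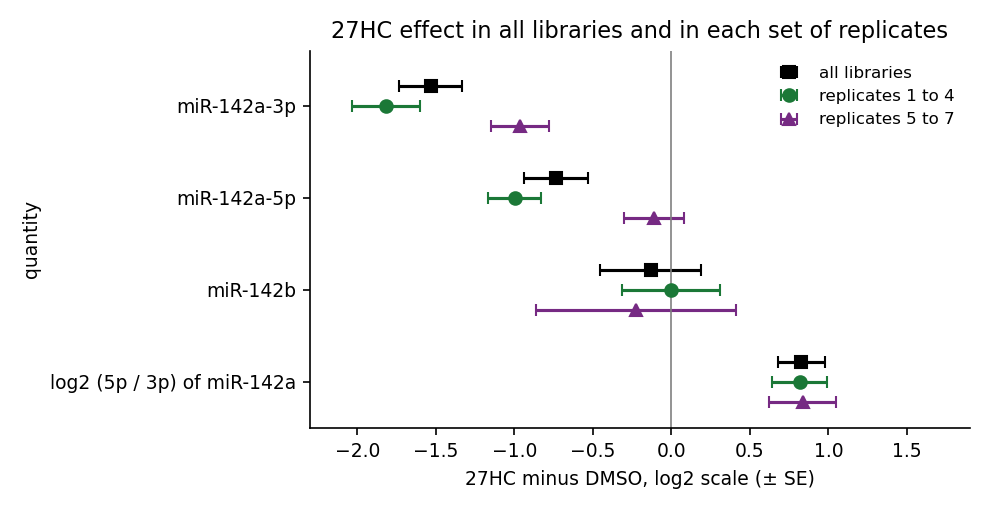
27HC effect on the log2 scale (horizontal, ± SE) for the 3 miR-142 names and for the arm ratio of miR-142a, in all libraries (black squares), replicates 1 to 4 (green circles) and replicates 5 to 7 (purple triangles). The levels of both arms moved less in replicates 5 to 7, at −0.96 and −0.11, and the arm ratio stood at 0.82 and 0.84 in the sets.

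The names whose log2 CPM followed miR-142a-3p most closely over the 14 libraries were miR-129-2-3p, miR-129-5p, miR-8112, let-7f-5p and miR-142a-5p. Pearson's r was 0.921, 0.890, 0.882, 0.878 and 0.876, against a median of −0.074 over the tested names. All 5 were called lower with 27HC, and the libraries they share include the treatment itself. After subtraction of the group means, the closest names were miR-26b-5p at 0.914, miR-142a-5p at 0.872, miR-26a-5p at 0.842, miR-322-5p at 0.775 and miR-29c-3p at 0.726. Of these 5 only miR-142a-5p was called. miR-142b was far down both orders, at 0.258 and 0.201, on its low counts. These are descriptions over 14 libraries that share depth and replicate set.

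A list of 9 other miRNAs of blood cells gave the surroundings of miR-142. All 9 were tested, and 3 were called lower and 0 higher, where 8.79% of all names tested were called lower and 3.77% higher. Their median log2 fold change was −0.25, against 0.010 over all names tested, a description with no test, and 3 of the 9 had a positive value. The 3 were miR-146a-5p and miR-155-5p, which are induced in inflammation and restrain or modulate its signalling, and miR-150-5p, a miRNA of mature lymphocytes. miR-146a-5p had groups that did not overlap, with a log2 fold change of −0.82 (SE 0.093). miR-150-5p stood at −0.97 (SE 0.24) and miR-155-5p at −1.48 (SE 0.40). The edgeR adjusted p-values of the 3 were 5.38e-06, 0.0134 and 0.0216 in the order miR-146a-5p, miR-150-5p, miR-155-5p. Of the 6 not called, miR-223-3p stood at −0.26, miR-223-5p at 0.17, miR-146b-5p at −0.25, miR-181a-5p at −0.079, miR-181b-5p at 0.10 and miR-342-3p at 0.089. The lymphoid list, 4 of these names, had 2 called lower, beside the same 8.79% of all names, and its summed level was 2167 to 2679 CPM in DMSO and 1956 to 2629 CPM in 27HC libraries. Its part in the fall of miR-142a was not tested.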

How the data were processed

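The members and lists were chosen with earlier results of these data known. The values are raw counts per mature miRNA and library, deposited by the authors as whole numbers. The submitters' processing notes name R 4.1.2, edgeR, limma and the builds GRCm39 and mm39. The aligner and the use of molecular identifiers are not given in the sources used here, so a count may be a read or a molecule, and intervals cover counting error only. All libraries and columns were matched to labels (0 unmatched). Treatment was tested with edgeR 4.0.16 (quasi-likelihood, TMM, filterByExpr with a minimum count of 10 and total of 15) in R 4.3.3, over the 239 names kept, with Benjamini-Hochberg adjusted p under 0.05 as a call. Each standard error was derived from the log2 difference divided by the root of F. Arm ratios, log2 with a pseudocount of 0.5, were fitted with limma 3.58.1, and single ratios were tested by exact permutation in scipy 1.17.1. The edgeR and limma fits were tried on simulated data whose changes were larger than those of miR-142a. Those trials do not show how well changes of its size are found. All 42 pairs of libraries within groups differed beyond sampling noise (lowest chi-square per degree of freedom 5.57). Named were the 3 miR-142 names, the 2 denominators, the 5 names most correlated with miR-142a-3p before and after removing group means, seed mates, called names of the blood list and called arm ratios. Neighbours in abundance, uncalled list members and miR-223 and miR-574 among hairpins were named after their values were seen. Alternatives covered scaling, filter, DESeq2 1.42.0 and limma-voom, robust dispersion, replicate block, replicate sets and left-out libraries.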

Additional observations from a re-analysis of the deposited data

How the results depend on the processing

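The fall of miR-142a-3p kept its direction and call under all 12 alternatives outside the left-out libraries, at −1.82 to −0.96. The fall of miR-142a-5p kept its direction and lost its call with limma-voom (−0.67), in replicates 5 to 7 alone (−0.11) and in 8 of 14 fits without 1 library (−0.83 to −0.52). miR-142b ranged from −0.25 to 0.088 without 1 library, was reversed only without 27HC replicate 5 (0.088), and was not tested among names with a mean of at least 100 counts. Without a filter the median of all names moved to −0.19. Relative to it miR-142a-3p stood at −1.52 and miR-142a-5p at −0.71, and with the filter relative to its own median at −1.54 and −0.75. In replicates 5 to 7 alone 12 names were called in place of 30, and 1 hairpin by arm ratio, miR-142a not included, in place of 4 (miR-142a at 0.84, limma adjusted p 0.05995). Fewer libraries and fewer names were tested there. The exact tests in those replicates cannot go below 0.1, and the 5 ratios were 0.84 for the arms, −1.13 and −1.23 for miR-142a-3p against miR-223-3p and miR-16-5p, and −0.29 and −0.39 for miR-142a-5p. In replicates 1 to 4 alone miR-142a-5p against miR-223-3p was at −0.55 (exact permutation p 0.0571). Without 1 library each, the arm difference ran from 0.79 to 0.89, the count of names from 21 to 34 and that of hairpins from 3 to 6, and no ratio lost its call.

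Same-numbered libraries had correlations of their deviations from 0.069 to 0.600, and 3 of 7 numbers matched best with themselves. The other numbers matched best with a number of their own replicate set. These values do not settle whether the numbers are pairs. The main fits did not take them as pairs because the labels do not say that they are. With the replicate block 37 names were called, including all 30, miR-142a-3p was at −1.48, miR-142a-5p at −0.66 (edgeR adjusted p 0.0311), miR-142b at −0.12 and the arm ratio at 0.83, and 5 hairpins were called. The ratios to miR-223-3p and miR-16-5p had the same means as without the block, −1.27, −1.58, −0.44 and −0.75. Each had an exact sign-flip p of 0.0156, the smallest this test can give here.

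Depth limits the scarce miR-142b, at 2 to 53 counts: 3 counts stand for 4.09 CPM in the deepest and 24.6 CPM in the shallowest library by scaled size.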
